A study of Mus musculus with 30 samples.

Results

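Susceptible and Resilient female mice were compared in the D2 class of medium spiny neuron of the nucleus accumbens, with 5 libraries in each group, 10 of the 30 libraries of the study. The members are these 10 libraries, taken by their labels, and the 19368 genes of 55335 with enough counts to be tested. The other 20 libraries are the D2 Control group and the Control, Susceptible and Resilient groups of the D1 class. All mice carried RiboTag (RT), an allele that puts an HA tag on the ribosomal protein Rpl22 in cells with Cre recombinase. A2A-Cre-RT mice carried it in cells that express the adenosine A2A receptor, which gave the libraries called D2, and D1-Cre-RT mice gave those called D1. Stressed mice underwent chronic witness defeat stress (CWDS), in which a mouse watches the defeat of another. They were grouped by their social interaction scores afterwards, so Susceptible and Resilient mice shared the stress and differed in the score. The labels give no age. Nucleus accumbens punches were taken 24 h after the social interaction test, polyribosomes were pulled down with an antibody to HA, and each library pooled 4 mice with similar scores and started from 10 ng of RNA. The values are therefore levels of ribosome-associated RNA in pools. Fewer cells of a type and less RNA per cell cannot be told apart in them. P-values cover the spread between such pools.

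The nucleus accumbens holds medium spiny neurons of a pair of main classes, which differ in their dopamine receptors. D2 neurons express the inhibitory dopamine receptor Drd2, the adenosine receptor Adora2a and the enkephalin precursor Penk, and project mainly to the ventral pallidum. D1 neurons express the stimulatory receptor Drd1, the dynorphin precursor Pdyn and the tachykinin precursor Tac1. Both classes take part in reward and in behaviour after social stress.

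Gene counts were 48699934 to 65834869 in the D2 Susceptible libraries and 47207550 to 62997974 in the D2 Resilient libraries. Susceptible 1 and Susceptible 2 stood apart, with 15822 and 16525 genes detected against 19925 to 21664 in the other 8. In Susceptible 1 22.3% of the tested genes were at 0 counts and in Susceptible 2 19.6%, against 2.59% to 6.55% in the others. Their reads outside genes were 11.1% and 10.4%, against 5.38% to 7.87%. The median over genes of the SD of log2 CPM (gene counts scaled to the same library total) was 0.597 over the 5 Susceptible libraries, 0.236 over Susceptible 3 to 5 and 0.280 over the Resilient libraries. Markers of keratinocytes, the main cells of the skin surface, summed to 338 CPM in Susceptible 1 and 543 CPM in Susceptible 2, against 44.4 to 62.1 CPM in the other 8, and Krt5 and Krt14 were at 0 counts in those 8. Resilient 5 stood apart in another way. Its 7 D1-class markers summed to 1858 CPM, against 371 to 487 CPM in Resilient 1 to 4 and 281 to 637 CPM in the Susceptible libraries. Its 5 D2-class markers summed to 4867 CPM, against 9792 to 12490 CPM in Resilient 1 to 4 and 11770 to 12800 CPM in the Susceptible libraries. The D2 Control group, used for the class comparison below, held libraries that went the same way. Control 5 had a D1-class sum of 1236 CPM and a D2-class sum of 7287 CPM, and Control 3 had 717 and 9824 CPM. Control 1, 2 and 4 had D1-class sums of 344, 373 and 488 CPM. The called genes, the gene lists and the class comparison below are given with all libraries and without Susceptible 1 and 2. The class comparison, the class marker lists and the called genes that differ between the classes are also given without Resilient 5. The part of these libraries' features in a result was not tested unless a value without them is given.

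**Figure D1:**
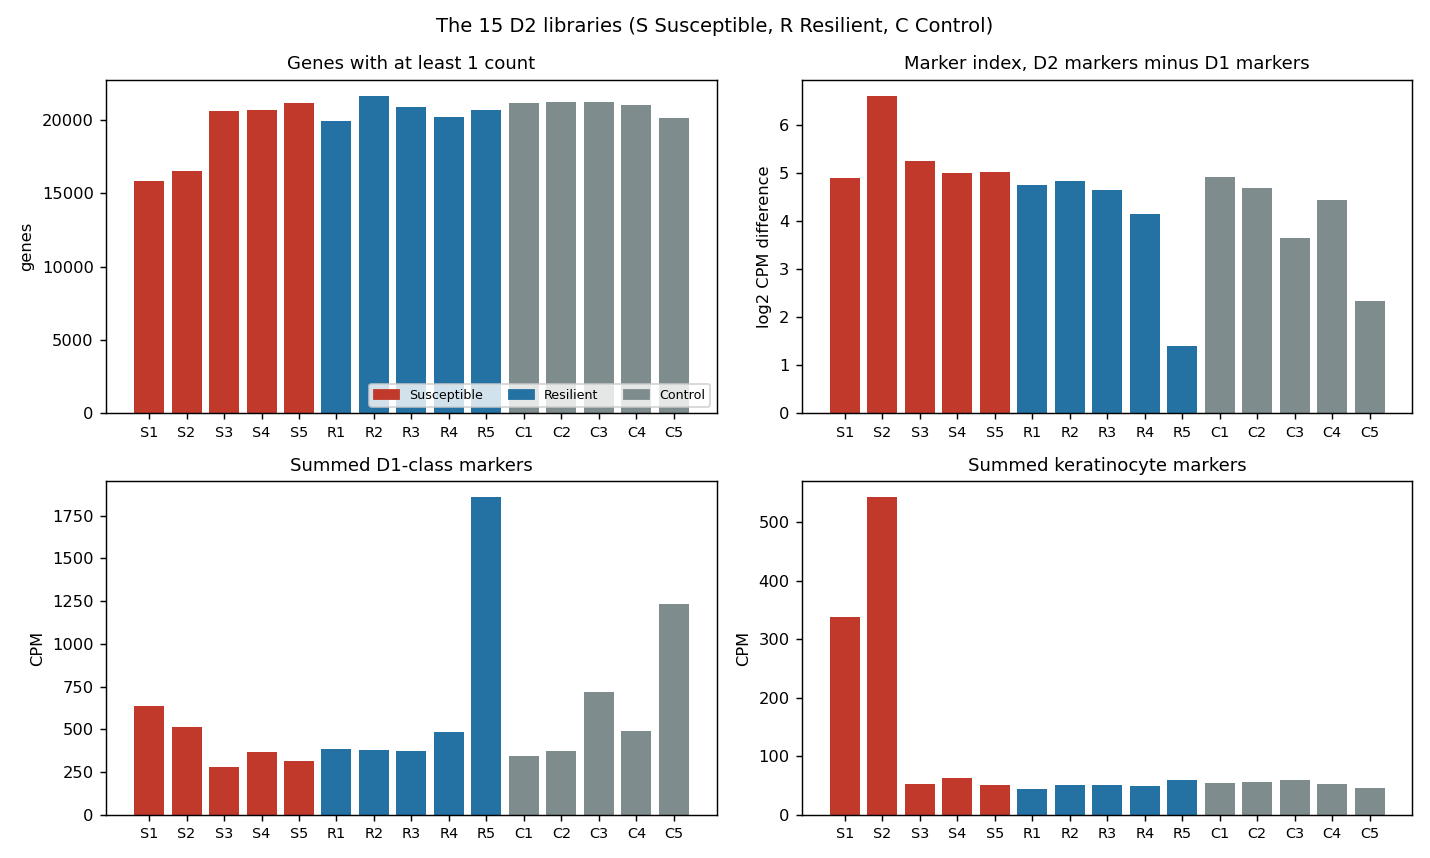
Bars show, for each of the 15 D2 libraries (5 Susceptible, 5 Resilient, 5 Control), the genes with at least 1 count, the marker index (mean log2 CPM of D2-class markers minus that of D1-class markers), the summed CPM of D1-class markers and the summed CPM of keratinocyte markers. Susceptible 1 and 2 have the fewest genes and the highest keratinocyte sums, and Resilient 5 has the lowest index (1.395) and the highest D1-class sum (1858 CPM).

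The labelled class was checked first. Drd2, Adora2a, Penk, Gpr6 and Sp9, a transcription factor of D2 neurons, were present in every library. Adora2a averaged 1376 ± 80.3 CPM (SD, n = 5) over Susceptible and 988 ± 285 CPM in Resilient libraries, where Resilient 5 had 491 CPM. Penk averaged 9991 ± 477 CPM over Susceptible and 7893 ± 2409 CPM over Resilient libraries. The marker index was 4.898, 6.602, 5.247, 4.999 and 5.009 in Susceptible 1 to 5. It was 4.734, 4.82, 4.633, 4.143 and 1.395 in Resilient 1 to 5. D2 Control 1 to 5 had 4.91, 4.691, 3.636, 4.431 and 2.336. Every Susceptible library was above every Resilient library, and the mean difference was 1.406 log2 units (exact two-sided permutation test, 5 against 5, p = 0.00794, the smallest that this design can give). Without Susceptible 1 and 2 the difference was 1.14 (exact permutation p = 0.0357, the smallest that 3 against 5 can give). Without these and Resilient 5 it was 0.503 (exact permutation p = 0.0571, the smallest that 3 against 4 can give). With Drd2, Adora2a, Drd1 and Tac1 as the only markers the difference was 0.954 and did not pass (exact permutation p = 0.167). The index averages log2 values, so markers near 0 counts weigh heavily in it. In Susceptible 1 and 2 Chrm4 was 1.35 and 0 CPM and Isl1 0.601 and 0.869 CPM, below the other compared libraries. Their Tac1 (423 and 373 CPM), Sfxn1 (96.4 and 49.0 CPM) and Drd1 (74.4 and 60.4 CPM) were the highest Susceptible values. Pdyn was 32.1 and 30.9 CPM and Eya1 9.19 and 1.16 CPM there. Rpl22, the tagged protein's gene, ranged over 61.0 to 107 CPM in the Susceptible and 54.5 to 66.1 CPM in the Resilient libraries, a log2 difference of 0.24 (edgeR adjusted p = 0.271).

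There were 10 genes that passed the test between the groups, with edgeR's quasi-likelihood test and Benjamini-Hochberg adjustment over all genes, which is 10 of 19368 (0.0516%). Hrk, Chd9, Nrgn, Arhgef15 and Kcnk2 were higher in Susceptible libraries, and Mustn1, Ttc39c, Scg2, Sez6l and Cpne7 were lower. On GRCm38 with GENCODE M21, Hrk lies at chr5:118164648-118189478, Chd9 at chr8:90828352-91054516, Cpne7 at chr8:123117374-123135182 and Mustn1 at chr14:30879200-30881610. Nrgn lies at chr9:37544492-37552904, Arhgef15 at chr11:68943155-68957480, Kcnk2 at chr1:189207930-189402273, Scg2 at chr1:79434669-79440120 and Sez6l at chr5:112419151-112577185. For each of the 10 no Susceptible library reached into the range of the Resilient libraries in CPM. For Mustn1 this rests on the scaling, since Susceptible 3 and Resilient 5 had 1 count each. Over all genes tested, 120 (0.62%) were higher and 171 (0.883%) were lower without overlap in this sense. No gene passed without Susceptible 1 and 2 (0 of 20427, 0.0%), and the smallest adjusted p was then 0.0561, for Chd9. With all libraries DESeq2 called 976 genes, the 10 among them, limma's voom with quality weights called 1 (Chd9), and edgeR with only the compared groups called 0. With edgeR the number also depended on single libraries: it was 0, 4, 1964, 412 and 1607 without Susceptible 1 to 5 in turn and 17, 0, 8, 6 and 1 without Resilient 1 to 5.

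Hrk encodes a BH3-only member of the BCL2 family, which promotes cell death in neurons. It was 140, 168, 106, 106 and 102 CPM in Susceptible 1 to 5 and 88.3, 71.6, 87.9, 84.7 and 76.3 CPM in Resilient 1 to 5. Susceptible 1 and 2 were the highest, and the other 3 Susceptible libraries also lay above all 5 Resilient ones. The log2 change was 0.61 ± 0.102 (SE; edgeR adjusted p = 0.0222), and 0.35 without Susceptible 1 and 2 (edgeR adjusted p = 0.246). Control libraries lay between the groups or level with the lower Susceptible libraries, at 90.1 to 105 CPM.

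Chd9 encodes a chromodomain helicase, an enzyme that moves nucleosomes. Its levels were 132, 52.3, 86.3, 108 and 88.9 CPM in Susceptible 1 to 5 and 49.5, 43.5, 38.2, 39.2 and 34.8 CPM in Resilient 1 to 5. Susceptible 2 was the lowest of its group and close to Resilient 1. The log2 change was 1.19 ± 0.203 (SE; edgeR adjusted p = 0.0222), a fold of 2.28, and it was 1.20 without Susceptible 1 and 2 and 1.14 when Resilient 5 was left out as well. Among the 10 genes, Chd9 and Mustn1 were the ones whose groups differed by more than 2-fold. Control libraries had 66.0 to 104 CPM, all above the 5 Resilient libraries and inside the range of the Susceptible libraries. The log2 difference of Resilient from Control was −1.02 (edgeR adjusted p = 0.399), and that of Susceptible from Control was 0.16 (adjusted p = 0.717). These comparisons share libraries with the one between Susceptible and Resilient. Genes overlap Chd9 on the opposite strand in the annotation, and since the strand setting of the counting is not given, reads of such partners cannot be told apart from its own. The same holds for Ttc39c, Sez6l and Kcnk2, and Chd9, Ttc39c, Kcnk2 and Cpne7 also overlap genes on their own strand.

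Nrgn encodes neurogranin, a postsynaptic protein that binds calmodulin when calcium is low. It was 1709, 1845, 1413, 1582 and 1268 CPM in Susceptible 1 to 5 and 999, 899, 944, 1186 and 892 CPM in Resilient 1 to 5. All 5 Susceptible libraries were above Resilient 4, the highest of its group. The log2 change was 0.67 ± 0.121 (SE; edgeR adjusted p = 0.0252), and 0.53 without Susceptible 1 and 2. Kcnk2 encodes TREK-1, a leak potassium channel of the K2P family. Its levels were 449, 436, 284, 293 and 284 CPM in Susceptible 1 to 5 and 262.5, 224, 227, 251 and 190 CPM in Resilient 1 to 5. Here Susceptible 1 and 2 stood far above the other 3, which still lay above the highest Resilient library. As a log2 difference this was 0.60 ± 0.121 (SE; edgeR adjusted p = 0.0495), and 0.31 without Susceptible 1 and 2. Arhgef15 encodes a guanine nucleotide exchange factor. It was 51.5, 56.2, 48.0, 45.8 and 42.2 CPM in Susceptible 1 to 5 and 39.7, 33.8, 37.1, 36.3 and 35.5 CPM in Resilient 1 to 5. The lowest Susceptible library and the highest Resilient library were close. On the log2 scale the change was 0.42 ± 0.0841 (SE; edgeR adjusted p = 0.0495), and 0.31 without Susceptible 1 and 2.

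Scg2 encodes secretogranin II, a granin of dense-core vesicles and the precursor of the peptide secretoneurin. It was 550, 580, 676, 758 and 809 CPM in Susceptible 1 to 5 and 1047, 1056, 847, 832 and 1275 CPM in Resilient 1 to 5. Resilient 5 had the most and Susceptible 1 and 2 the least, while Susceptible 5 and Resilient 4 were nearly level. Its log2 change was −0.58 ± 0.114 (SE; edgeR adjusted p = 0.0435), and it was −0.44 without Susceptible 1 and 2 and −0.34 when Resilient 5 was also left out. Scg2 is known as a gene with a cAMP response element in its promoter. RefSeq's promoters on GRCm38.p6, 250 bases before to 50 bases after a start, hold that element's letters, TGACGTCA, for Scg2, with the first letter 68 bases before the start. The letters are the same on both strands. The stretch is shown because Scg2 alone, of the called genes looked up here, had them in its promoter, and it lies at chr1:79440076-79440105 on the minus strand, inside the first exon of a longer GENCODE transcript of Scg2. The 8 capitals mark the element.
Scg2: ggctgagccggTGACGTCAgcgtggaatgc
The promoters of Hrk, Chd9, Mustn1, Nrgn, Sez6l and Kcnk2 in the same table did not hold these letters, and Arhgef15 and Cpne7 had no entry. They occurred in 588 of 32851 promoters (1.79%). Of 422 tested genes with the letters, 42 were higher and 45 lower with an unadjusted p under 0.05, and their median log2 change was −0.0511, against 1367 higher and 1110 lower of 12650 tested genes with a promoter and a median of −0.0303. The counts were 6 and 10 with the letters, and 236 and 405 over genes with a promoter, without Susceptible 1 and 2.

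Sez6l encodes a neuronal membrane protein of the SEZ6 family. It was 30.6, 24.1, 36.7, 40.9 and 41.5 CPM in Susceptible 1 to 5 and 44.0, 58.8, 54.2, 51.8 and 76.8 CPM in Resilient 1 to 5. Resilient 1 was close to Susceptible 4 and 5, and Resilient 5 was the highest. As a log2 difference this was −0.72 ± 0.140 (SE; edgeR adjusted p = 0.0435), and −0.53 without Susceptible 1 and 2. Cpne7 encodes a copine, which binds membranes in the presence of calcium. Its levels were 7.0, 6.32, 8.56, 9.07 and 7.75 CPM in Susceptible 1 to 5 and 11.8, 13.5, 13.2, 12.2 and 15.8 CPM in Resilient 1 to 5. The gap between the groups was wide here, with 9.07 CPM as the highest Susceptible value and 11.8 CPM as the lowest Resilient one. On the log2 scale the change was −0.78 ± 0.158 (SE; edgeR adjusted p = 0.0495), and −0.66 without Susceptible 1 and 2.

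Ttc39c encodes a protein with tetratricopeptide repeats. It was 30.9, 27.3, 33.5, 29.6 and 38.5 CPM in Susceptible 1 to 5 and 47.6, 43.5, 41.8, 40.0 and 52.3 CPM in Resilient 1 to 5, so that Susceptible 5 came near Resilient 4. Its log2 change was −0.49 ± 0.0912 (SE; edgeR adjusted p = 0.0254), and −0.41 without Susceptible 1 and 2. Mustn1 encodes a small nuclear protein known from muscle and skeleton, and it was nearly absent here. It had 0, 0, 1, 0 and 0 counts in Susceptible 1 to 5 and 20, 7, 13, 28 and 1 counts in Resilient 1 to 5. Susceptible 3 and Resilient 5 thus had 1 count each. The ratio of the summed, scaled counts was 0.0143, with an exact 95% binomial interval of 0.000357 to 0.0823 that covers counting error only (edgeR adjusted p = 0.0246). The log2 change of Mustn1 was −5.32 ± 0.949 (SE), and −4.91 without Susceptible 1 and 2 (edgeR adjusted p = 0.236). Control libraries held 13 to 34 counts each.

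**Figure D2:**
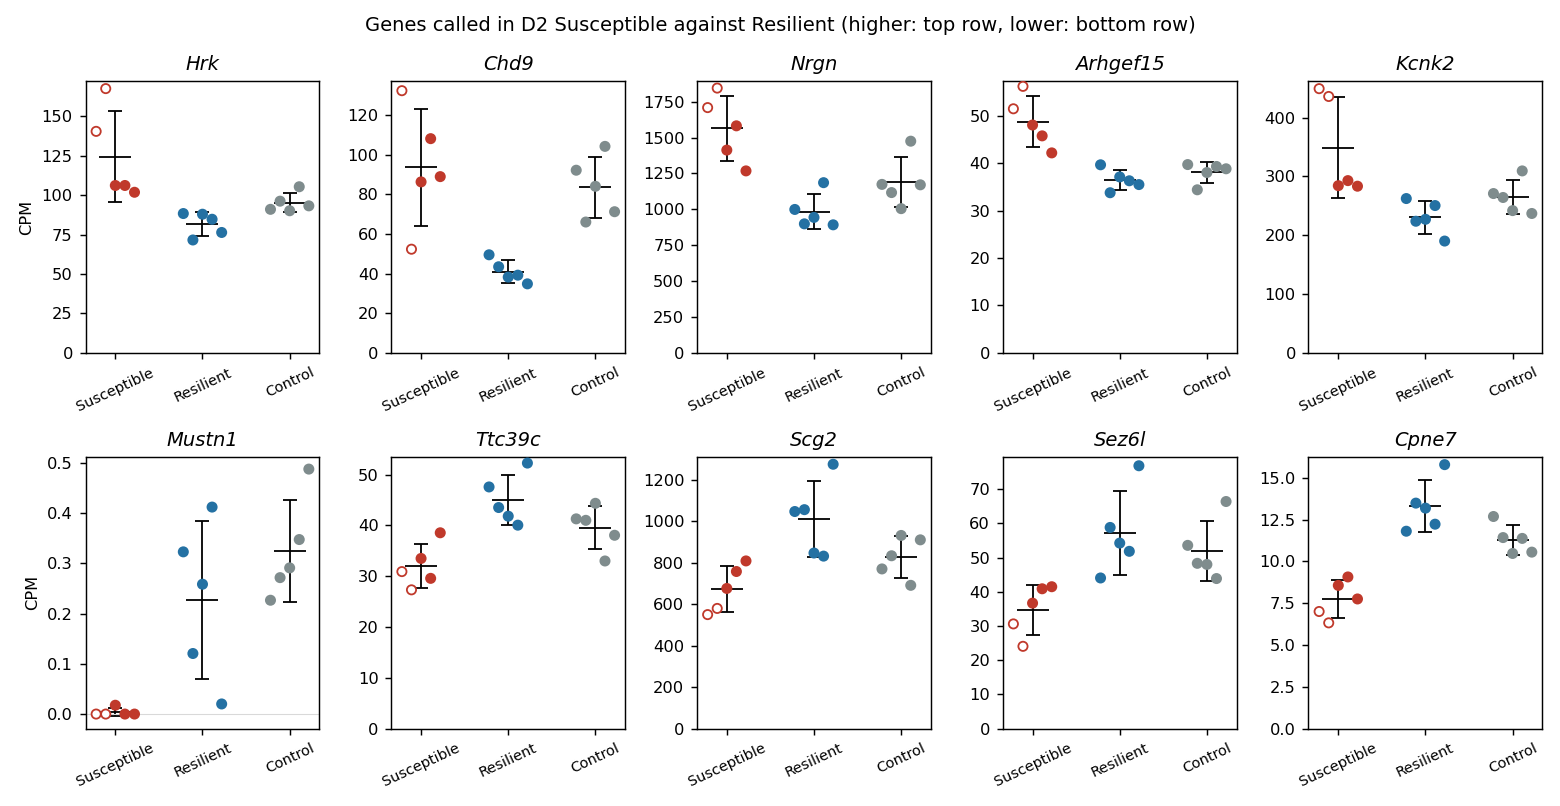
Points show the CPM of the 10 called genes in the 5 Susceptible, 5 Resilient and 5 Control D2 libraries, with open points for Susceptible 1 and 2, and bars give the mean and SD of each group. Chd9 in Resilient libraries (34.8 to 49.5 CPM) lies below both other groups, and in most of the other panels the Control points lie between the Susceptible and Resilient points or overlap with one of them.

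In D1 libraries the same 10 genes had log2 changes of −0.23 to 0.14 between Susceptible and Resilient, with an adjusted p of 1 for each. The difference between the D2 and D1 changes did not pass for any of 19368 genes (0, 0.0%). At an unadjusted p under 0.05 it held 2404 genes with edgeR, and DESeq2 called 47. Without Susceptible 1 and 2 edgeR called 1 gene, Gm6361, and without Susceptible 3 it called 156. For the 10 genes its adjusted p was 0.192 to 0.276, and 0.298 to 0.337 without D1 Susceptible 1, a library in which 54.9% of counts fell on the ribosomal RNA gene Gm42418. The largest differences among them were −5.09 for Mustn1, 1.05 for Chd9 and 0.81 for Nrgn on the log2 scale. A D2-only change is thus not shown for these genes.

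Below the adjusted threshold, 2093 genes (10.8%) were higher and 1600 (8.26%) lower in Susceptible libraries with an unadjusted p under 0.05. Without Susceptible 1 and 2 the same counts were 410 (2.01%) and 703 (3.44%), and without Resilient 5 as well they were 458 (2.25%) and 630 (3.09%). Of the 2093 higher genes, 193 were also higher at that level without Susceptible 1 and 2, and of the 1600 lower genes 361 were also lower. With all libraries the share at that level was larger for abundant genes, from 11.8% in the lowest of 10 equal groups of genes by mean CPM to 35.6% in the highest, although it was lowest, 7.18%, in the next group up. In the lowest and highest groups it was 8.62% and 4.23% without Susceptible 1 and 2.

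The 12 genes with the smallest p without Susceptible 1 and 2, 6 in each direction, were chosen by that p, so it is a description. Chd9, Hrk, Nrgn and Arhgef15 were among the 6 higher ones, with Stk36 and Zfp384. Zfp384, a zinc finger protein, was 21.6, 19.5 and 22.1 CPM in Susceptible 3 to 5 and 15.7 to 18.5 CPM in Resilient libraries. Susceptible 1 and 2 were at 16.8 and 13.8 CPM, inside or below the Resilient range, and the log2 change was 0.32 without them and 0.15 with them. Stk36, a kinase that acts in motile cilia, was 1.83, 1.78 and 2.00 CPM in Susceptible 3 to 5 and 0.577 to 0.985 CPM in Resilient libraries. Susceptible 1 was the highest, at 6.40 CPM, and Susceptible 2 lay inside the Resilient range, at 0.924 CPM.

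The 6 lower ones were Pcdh20, Gjd2, Npr3, Gabrg1, Ttc39c and Ctps2. Pcdh20, a protocadherin of cell adhesion, was 3.68, 3.19 and 3.62 CPM in Susceptible 3 to 5 and 5.84 to 7.83 CPM in Resilient libraries, with 2.15 and 6.85 CPM in Susceptible 1 and 2. Control libraries had 3.20 to 5.52 CPM of Pcdh20, below all Resilient libraries. Gjd2, the gap junction protein connexin 36, was 0.561, 0.720 and 0.971 CPM in Susceptible 3 to 5 and 0.912 to 3.28 CPM in Resilient libraries, with 0 and 1.79 CPM in Susceptible 1 and 2. Npr3, the clearance receptor for natriuretic peptides, was 0.175, 0.505 and 0.309 CPM in Susceptible 3 to 5 and 0.646 to 2.01 CPM in Resilient libraries. Susceptible 1 and 2 had 1.78 and 1.10 CPM of Npr3, inside the Resilient range, and its log2 change was −1.89 without them and −0.68 with them. Gabrg1, a GABA-A receptor subunit, was 17.1, 17.1 and 15.8 CPM in Susceptible 3 to 5 and 18.8 to 34.3 CPM in Resilient libraries, but 33.0 CPM in Susceptible 1, inside the Resilient range, and 15.5 CPM in Susceptible 2. Ctps2, a CTP synthase, was 6.33, 7.21 and 7.62 CPM in Susceptible 3 to 5 and 8.94 to 13.7 CPM in Resilient libraries, with 9.26 CPM in Susceptible 1, inside the Resilient range, and 7.44 CPM in Susceptible 2. Resilient 5 had the highest Ctps2, Gabrg1 and Npr3 of the 10 compared libraries. Without Susceptible 1 and 2 and Resilient 5 the log2 changes were −0.92 for Pcdh20, −1.48 for Gjd2 and −1.64 for Npr3. They were −0.54 for Gabrg1, −0.36 for Ttc39c and −0.49 for Ctps2. In Control libraries Pcdh20 (log2 difference −1.22), Gjd2 (−1.91), Npr3 (−1.76) and Ctps2 (−0.78) were lower in D2 than in D1 (edgeR adjusted p under 0.05). Gabrg1 (−0.51, adjusted p = 0.0641) and Ttc39c (−0.18) did not pass.

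Genes that differ between the classes were described next. In Control libraries, none of which is in either stress group, 929 genes (4.80%) were higher in D2 than in D1 and 679 (3.51%) were lower (edgeR adjusted p under 0.05). Of the 929 D2-higher genes, 76.3% had a positive change from Resilient to Susceptible, with a median log2 change of 0.18. Of the 679 D1-higher genes 16.5% did, with a median of −0.19, while 46.4% of all genes tested did. Without Susceptible 1 and 2 these shares were 80.8%, 12.1% and 49.6%. With Resilient 5 left out as well they were 66.4%, 18% and 50.2%, and the medians were 0.0854 and −0.117. Across 9148 genes of mean CPM 10 or more, Pearson's r between both log2 values was 0.325 and Spearman's coefficient 0.479 with all libraries, and 0.148 and 0.372 without the 3 libraries. These correlations are across genes, which share their libraries and depth, and are a description.

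Of the 361 genes lower in both fits 81 (22.4%) were D1-higher, which is 11.9% of the D1-higher genes, and 2 were D2-higher. Of the 193 genes higher in both fits 44 (22.8%) were D2-higher, which is 4.74% of the D2-higher genes, and 0 were D1-higher. Among the 10 called genes, Nrgn (0.72), Kcnk2 (0.77), Hrk (0.40) and Arhgef15 (0.28) had positive log2 differences between D2 and D1 Control libraries that passed the test. Sez6l (−0.93), Cpne7 (−0.61) and Scg2 (−0.58) had negative ones that passed. Chd9 (−0.03, adjusted p = 0.965), Ttc39c (−0.18, adjusted p = 0.284) and Mustn1 (−0.60, adjusted p = 0.735) did not pass. Each of the 7 genes that passed thus differed between the stress groups in the direction of the class difference. Without Susceptible 1 and 2 and Resilient 5 their log2 changes between the stress groups were smaller, and none passed the test. The changes were then 0.49 for Nrgn, 0.25 for Kcnk2, 0.33 for Hrk and 0.30 for Arhgef15. For Sez6l, Cpne7 and Scg2 they were −0.40, −0.59 and −0.34. The D1-class marker sum did not separate the groups: apart from Resilient 5 (1858 CPM), the highest sums were those of Susceptible 1 and 2 (637 and 515.5 CPM).

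**Figure D3:**
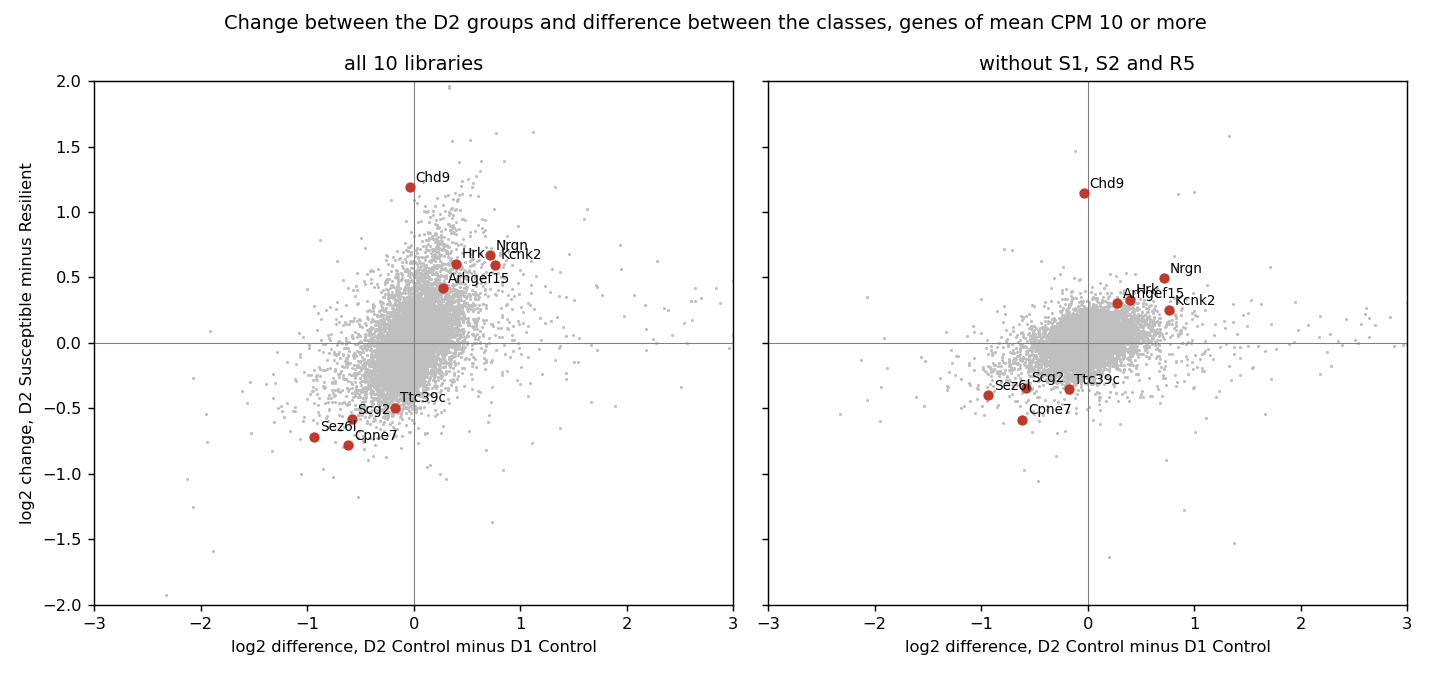
Each grey point is 1 of 9148 genes, with the log2 difference of D2 Control minus D1 Control on the x axis and the log2 change of D2 Susceptible minus Resilient on the y axis, for all 10 libraries (left) and without Susceptible 1, Susceptible 2 and Resilient 5 (right). Red points are called genes (Mustn1 is under the minimum), the cloud is flatter on the right (Pearson's r 0.148 against 0.325), Chd9 and Ttc39c lie near 0 on the x axis, and 27 genes on the left and 21 on the right lie outside the axes.

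The markers of D1 neurons themselves were low and none passed. Of 7 D1-class markers 0 were higher and 4 lower with an unadjusted p under 0.05, with a median log2 change of −1.25 against −0.03 over all genes. Pdyn was 32.1, 30.9, 35.1, 32.5 and 37.1 CPM in Susceptible 1 to 5 and 39.2, 33.5, 40.9, 89.4 and 434 CPM in Resilient 1 to 5 (edgeR adjusted p = 0.0864). Resilient 2 lay inside the Susceptible range, Resilient 1 and 3 lay just above it, and Resilient 4 and 5 lay far above it. Without the 3 libraries the log2 change was −0.55 for Pdyn and −0.44 for Drd1, against −1.92 and −1.25 with all libraries. Drd1 averaged 58.4 ± 9.73 CPM over Susceptible and 139.5 ± 154 CPM over Resilient libraries, of which Resilient 5 had 414 CPM. Without Susceptible 1 and 2 the list's median was −0.99, with 5 of 7 lower, and without Resilient 5 as well it was −0.41 with 1 of 7 lower. That 1 member was Eya1 (log2 change −0.50), which was also among the 5. Between D2 and D1 Control libraries Eya1 (log2 difference −0.03) and Chrm4 (−1.88) did not pass the test. Eya1 thus did not mark the D1 class in these data, although it is in the list and in the marker index. The D2-class list had a median of 0.34 with 0 of 5 at that level, and 0.15 without the 3 libraries. Sp9 had the smallest p of that list (log2 change 0.43, adjusted p = 0.271).

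Markers of striatal interneurons, which are other neurons of the same tissue, had a negative median as well. Of 10 tested members 0 were higher and 5 lower with an unadjusted p under 0.05, and the median log2 change was −0.56. The median was −0.92 without Susceptible 1 and 2, with 3 lower, and −0.23 when Resilient 5 was also left out, with 2 lower. Their sum was 78.6 to 116 CPM in Susceptible libraries, 121 to 152 CPM in Resilient 1 to 4 and 229 CPM in Resilient 5, and the groups did not overlap. Vip, a peptide of a small interneuron class, was 1.31, 1.18, 1.23, 1.95 and 1.96 CPM in Susceptible 1 to 5 and 2.68, 2.91, 3.76, 4.37 and 7.38 CPM in Resilient 1 to 5 (log2 change −1.46, edgeR adjusted p = 0.0586). Its groups did not overlap, and its log2 change was −1.30 without Susceptible 1 and 2 (edgeR adjusted p = 0.749) and −1.003 without the 3 libraries. D2 Control libraries spanned 2.44 to 14.7 CPM of Vip, with the most in Control 5. Vip was lower in D2 than in D1 Control libraries (log2 difference −1.90, edgeR adjusted p = 0.000489). The interneuron sum was 118 to 314 CPM in D2 Control libraries, again highest in Control 5. Calb2, the calcium-binding protein calretinin, was 18.5 ± 4.27 CPM in Resilient and 10.6 ± 4.06 CPM in Susceptible libraries, with a log2 change of −0.81, and of −1.05 without the 3 libraries, where it grew while the list's median shrank.

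Genes were then described by their function, in lists. Their counts are set beside the shares over all genes, 10.8% higher and 8.26% lower with all libraries. Without Susceptible 1 and 2 these shares were 2.01% and 3.44%. With all libraries the share rose with abundance, so these are low marks for lists of abundant genes. Both directions together, it was 28.9% and 35.6% in the 2 highest of the 10 groups by mean CPM. Shares matched to the abundance of each list were not computed. Chromatin remodellers of the CHD and SWI/SNF families had 11 of 23 members higher and 1 lower at that level, with a median log2 change of 0.22. With Susceptible 1 and 2 left out, 4 were higher (Chd8, Chd9, Smarcd1 and Smarcd3) and 1 lower (Chd1), with a median of 0.10. Chd9 alone passed the adjusted threshold. Arid1a, a SWI/SNF subunit, had means of 312 ± 150 CPM in Susceptible and 183 ± 19.6 CPM in Resilient libraries, and its log2 change of 0.77 (adjusted p = 0.0586) was 0.15 without Susceptible 1 and 2. Chd8 and Smarcd3 kept log2 changes of 0.18 and 0.19 without them, against 0.24 and 0.22 with them. Smarcb1 was the lower member (log2 change −0.24, adjusted p = 0.217). Of 25 histone methyltransferases 5 were higher and 2 lower, and 0 and 0 without Susceptible 1 and 2. Kmt2e, a member of the MLL family, was 520 and 380 CPM in Susceptible 1 and 2 and 105 to 173 CPM in the other 8 libraries.

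Calmodulin, CaMK and calcineurin genes, which carry calcium signals to kinases and phosphatases, had 6 of 19 members higher and 1 lower, and 2 and 1 without Susceptible 1 and 2. Nrgn and Camkk2 were the higher ones in both. Camkk2, a kinase that activates other CaM kinases, averaged 291 ± 63.4 CPM over Susceptible and 208 ± 17.9 CPM over Resilient libraries (log2 change 0.48, edgeR adjusted p = 0.055), and its change was 0.27 without Susceptible 1 and 2. Camk2d went the other way, at 32.7, 47.7, 31.1, 35.6 and 29.6 CPM in Susceptible 1 to 5 and 43.0, 43.0, 41.3, 42.2 and 62.7 CPM in Resilient 1 to 5. Susceptible 2 alone lay inside the Resilient range of Camk2d (log2 change −0.39, adjusted p = 0.171; −0.54 without Susceptible 1 and 2). Of 22 genes of striatal cAMP and DARPP-32 signalling, through which dopamine and adenosine receptors act, 1 was higher and 2 were lower, and 0 and 0 without Susceptible 1 and 2. Prkar2a, a regulatory subunit of protein kinase A, was 190 and 187 CPM in Susceptible 1 and 2 and 67.3 to 88.8 CPM in the other 8, so its log2 change of 0.68 went to −0.00 without them. Prkacb, a catalytic subunit, had the smallest p among the lower members (log2 change −0.22, adjusted p = 0.154; −0.13 without Susceptible 1 and 2).

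Granins and peptide-processing genes had 0 of 13 members higher and 6 lower, with a median log2 change of −0.25, and 3 lower without Susceptible 1 and 2, with a median of −0.10. Those 3 were Scg2, Scg3 and Pam. Scg3, another granin, averaged 78.6 ± 7.58 CPM over Susceptible and 102 ± 9.27 CPM over Resilient libraries (log2 change −0.38, edgeR adjusted p = 0.0653). Pam, which amidates peptides, had a log2 change of −0.41 (adjusted p = 0.0686) and of −0.20 without Susceptible 1 and 2. Chga, Chgb and Scg5 had log2 changes of −0.16, −0.16 and −0.04. Cpe, the carboxypeptidase that trims prohormones, had the smallest p among the members with a positive change, at 0.16, and was at −0.05 without Susceptible 1 and 2. The SEZ6 and copine families had 0 of 11 members higher and 4 lower, and 1 and 3 without Susceptible 1 and 2. Cpne9 was the 1 higher member then (log2 change 0.68, and 0.30 with all libraries, adjusted p = 0.786). The sum of these families ranged over 732 to 1526 CPM in Susceptible and 1152 to 1366 CPM in Resilient libraries, and the 2 lowest sums were those of Susceptible 1 and 2.

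Immediate early genes, which neurons induce on firing, had 1 of 18 members higher and 5 lower, with a median log2 change of −0.16, and 0 and 3 without Susceptible 1 and 2. None passed the adjusted threshold. Fos was 4.92, 6.14, 7.14, 8.15 and 4.34 CPM in Susceptible 1 to 5 and 16.5, 16.8, 11.3, 4.56 and 11.2 CPM in Resilient 1 to 5. Resilient 4 lay among the Susceptible libraries and the other 4 Resilient libraries lay above them (log2 change −0.97, edgeR adjusted p = 0.0736; −0.89 without Susceptible 1 and 2, edgeR adjusted p = 0.785). Npas4, a transcription factor specific to neuronal activity, averaged 2.68 ± 1.75 CPM over Susceptible and 5.98 ± 1.63 CPM over Resilient libraries, with a log2 change of −1.15 (adjusted p = 0.229) and of −0.87 without Susceptible 1 and 2. Fosl2 had a log2 change of −0.15, and of −0.35 without them. Egr1, Egr3 and Fosb had changes of −0.08, 0.09 and 0.05. Jund was the higher member through 1 library, at 135 CPM in Susceptible 1 and 2.69 to 8.22 CPM in the other 9.

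In the BCL2 family 6 of 17 members were higher and 1 lower, and without Susceptible 1 and 2 Hrk was the 1 higher member and 0 were lower. Bid, another BH3-only member, was the lower one with all libraries (log2 change −0.52, adjusted p = 0.245; −0.24 without Susceptible 1 and 2), at 1.70 to 4.17 CPM in Susceptible and 2.25 to 5.60 CPM in Resilient libraries. Of 15 K2P and Kir potassium channels 2 were higher with all libraries and 2 without Susceptible 1 and 2. Kcnk1 had the smallest p of the members with a negative change (log2 change −0.26, and 0.02 without Susceptible 1 and 2). The list's median log2 change was 0.08, and 0.03 without Susceptible 1 and 2. Of 31 voltage-gated potassium channel genes 4 were higher and 2 lower, and 0 and 2 without Susceptible 1 and 2. Kcna2 was 673 and 510 CPM in Susceptible 1 and 2 and 248 to 316 CPM in the other 8. Kcnip1, which binds Kv4 channels, was 21.1, 11.1, 17.8, 17.1 and 21.2 CPM in Susceptible 1 to 5 and 29.4, 26.8, 29.6, 22.6 and 23.8 CPM in Resilient 1 to 5, without overlap (log2 change −0.58, edgeR adjusted p = 0.078). Its change was −0.50 without Susceptible 1 and 2 (edgeR adjusted p = 0.635).

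Synaptic receptor genes had few members at that level in either direction. Of 13 AMPA receptor genes and auxiliary proteins 2 were higher and 2 lower, and 1 and 0 without these libraries. Cacng4, an auxiliary subunit, was 487 and 435 CPM in Susceptible 1 and 2 and 138 to 216 CPM in the other 8, so its log2 change of 0.94 (adjusted p = 0.0558) went to 0.25 without them. Gria4, a receptor subunit, had a log2 change of −0.45 (adjusted p = 0.0896) and of −0.22 without them. Of 14 NMDA and kainate receptor genes 1 was higher and 1 lower, and 1 and 0 without them. The higher one, Grin2b, was 939 and 945 CPM in Susceptible 1 and 2, 598 to 721 CPM in Susceptible 3 to 5 and 554 to 609 CPM in Resilient libraries, and the lower one, Grik4, had a log2 change of −0.30 (adjusted p = 0.262). Gabrb1, a GABA-A receptor subunit, was 368 and 355 CPM in Susceptible 1 and 2 and 146.5 to 191 CPM in the other 8 (log2 change 0.61, edgeR adjusted p = 0.0899; 0.08 without Susceptible 1 and 2).

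Of 16 postsynaptic scaffold genes 3 were higher and 0 lower, and 0 and 1 without Susceptible 1 and 2. Baiap2, a scaffold that links receptors to actin, was 1599, 1507, 989, 1058 and 942 CPM in Susceptible 1 to 5 and 858 to 904 CPM in Resilient libraries, without overlap (log2 change 0.47, edgeR adjusted p = 0.0653; 0.17 without Susceptible 1 and 2). Shank2 had the smallest p of the members with a negative change (−0.17, adjusted p = 0.539). Of 27 synaptic vesicle and SNARE genes 6 were higher and 4 lower, and 2 and 0 without Susceptible 1 and 2. Cplx2, a complexin of vesicle release, ranged over 2549 to 5718 CPM in the Susceptible and 2057 to 2512 CPM in the Resilient libraries, again without overlap (log2 change 0.74, adjusted p = 0.0554; 0.29 without Susceptible 1 and 2). Syt5, a synaptotagmin, was 151 and 124 CPM in Susceptible 1 and 2 and 271 to 361 CPM in the other 8.

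Housekeeping and stress-response lists had few or no members at that level without Susceptible 1 and 2. Cytosolic ribosomal protein genes other than Rpl22 had 33 of 77 higher and 1 lower, with a median of 0.21, and 0 and 0 without these libraries, with a median of 0.06. Nuclear-encoded genes of oxidative phosphorylation had 25 of 73 higher and 9 lower, and 1 and 0 without them. Proteasome subunits had 3 of 31 higher and 8 lower, and 0 and 0 without them. Rpl27a was 392.1 and 474.5 CPM in Susceptible 1 and 2 and 189 to 272 CPM in the other 8, and Psmd6 was 41.8 and 53.2 CPM against 101 to 139 CPM. The 13 mitochondrially encoded protein genes had a median log2 change of −0.69 with 1 lower member, mt-Co1 (613 and 1089 CPM in Susceptible 1 and 2, 1622 to 3566 CPM in the others), and of −0.08 without them. Heat shock genes had 1 of 18 higher and 4 lower, and 0 and 0 without them. Hsp90aa1 was 7316 and 5853 CPM in Susceptible 1 and 2 and 1979 to 3339 CPM in the others. Glucocorticoid receptors and their targets had 4 of 16 higher and 1 lower, and 0 and 0 without them, yet their median stayed at 0.15 and 0.14. Nfkbia, a target that restrains NF-kB, was 60.3, 74.7, 32.05, 40.4 and 29.5 CPM in Susceptible 1 to 5 and 31.6, 27.3, 31.0, 23.9 and 20.7 CPM in Resilient 1 to 5 (log2 change 0.82, edgeR adjusted p = 0.0586; 0.33 without Susceptible 1 and 2, edgeR adjusted p = 0.924). Cdkn1a had the smallest p of its members with a negative change (−0.42, adjusted p = 0.262).

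**Figure D4:**
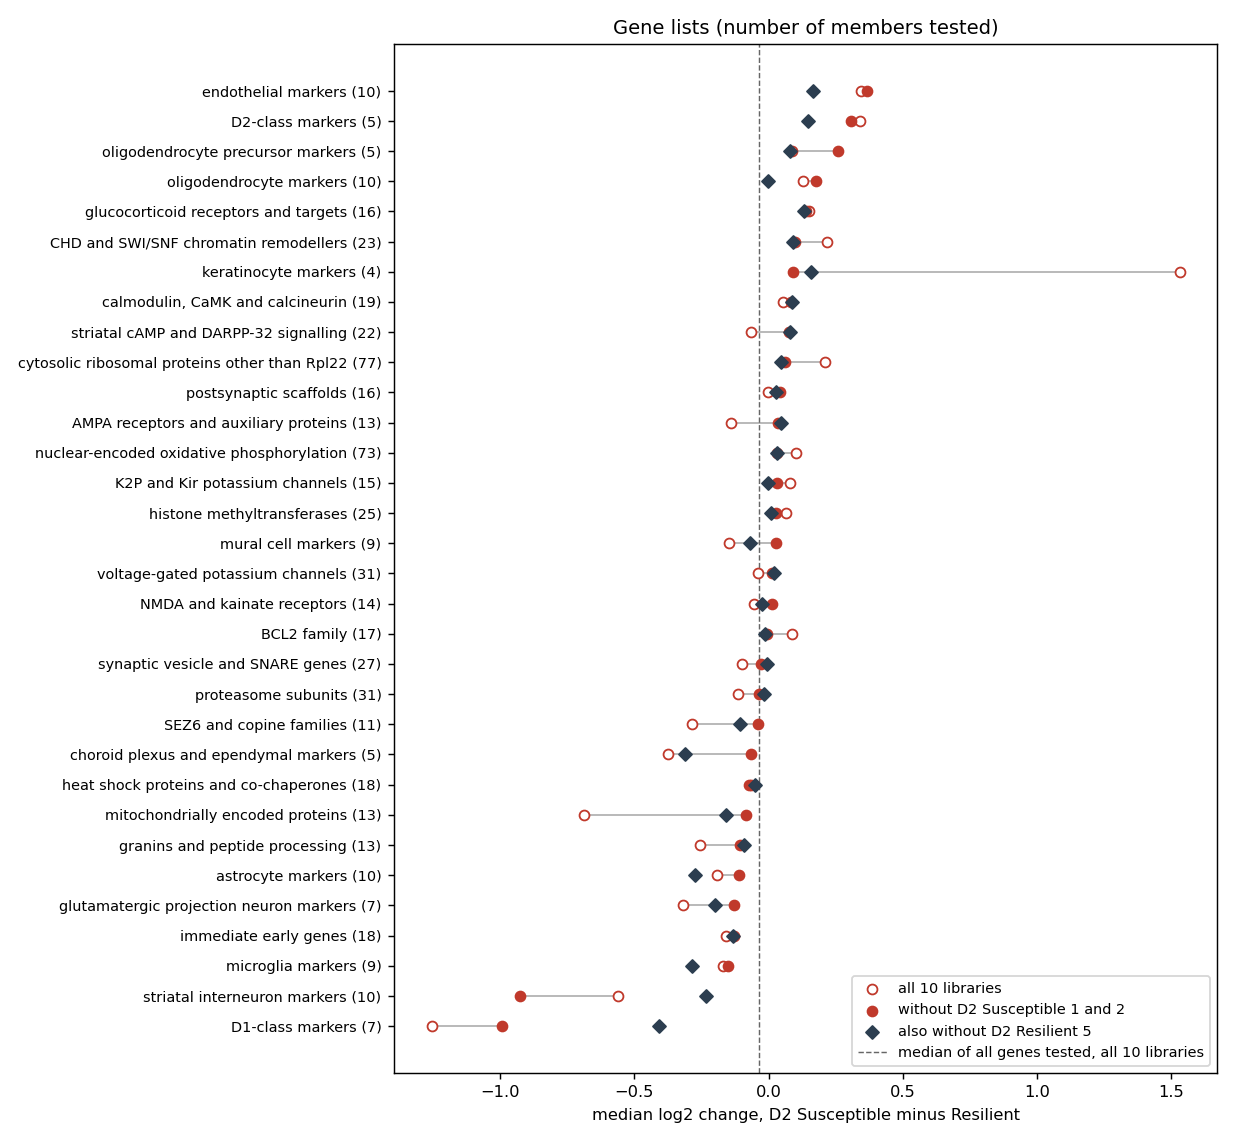
Points give the median log2 change of D2 Susceptible minus Resilient over the tested members of each gene list, with the number of members in parentheses, for all 10 libraries (open), without Susceptible 1 and 2 (filled) and also without Resilient 5 (diamonds); the dashed line is the median of all genes with all libraries. D1-class markers lie lowest (−1.25, −0.99 and −0.41), and keratinocyte markers lie highest with all libraries (1.53) and near the other lists without Susceptible 1 and 2 (0.09).

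Sums for markers of other cell types, such as glia and vessels, are given beside these results. They do not measure the share of RNA from those cells. Summed oligodendrocyte markers were 857 to 1929 CPM in Susceptible and 452 to 1162 CPM in Resilient libraries, with the highest sums in Susceptible 1 and 2 and the lowest in Resilient 5. Endothelial markers summed to 265 to 405 CPM in Susceptible libraries, 250 to 294 CPM in Resilient 1 to 4 and 88.7 CPM in Resilient 5. Astrocyte markers summed to 521 to 604 CPM in Susceptible libraries, 571 to 639 CPM in Resilient 1 to 4 and 284 CPM in Resilient 5. Microglia markers summed to 40.6 to 61.6 CPM in Susceptible and 37.0 to 82.8 CPM in Resilient libraries. In the same order, mural cell markers summed to 134 to 206 and 101 to 260 CPM. Glutamatergic projection neuron markers summed to 183 to 372 and 171 to 503 CPM. Oligodendrocyte precursor markers summed to 30.4 to 42.9 and 14.6 to 39.6 CPM, and choroid plexus and ependymal markers to 10.2 to 42.5 and 12.8 to 52.6 CPM. At an unadjusted p under 0.05, 2 of 10 endothelial, 1 of 10 astrocyte, 1 of 10 oligodendrocyte and 1 of 5 oligodendrocyte precursor markers were higher, and 1 of 9 microglia and 1 of 5 choroid plexus and ependymal markers were lower. Of these lists the precursor list alone kept 1 higher member without Susceptible 1 and 2 (Pdgfra), and it had 0 when Resilient 5 was also left out. Keratinocyte markers had 3 of 4 tested members higher, and 0 higher and 1 lower (Krt1) without these libraries. The part of these cells in the results above was not tested.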

How the data were processed

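RNA bound to HA-tagged ribosomes was sequenced after SMART-Seq v4 amplification, per the labels' protocols. The authors deposited whole-number counts of reads per gene, with HISAT2, HTSeq, GRCm38 and mm10 named in the submitters' processing notes; tool versions, the annotation release and whether counting used strand: not given in the sources used here. The 5 summary lines that name no gene were kept out of library sizes and tests, and reads outside genes were 5.38% to 11.1% of the compared libraries. Depth was 47207550 to 65834869 counts per compared library, without molecular identifiers, so intervals cover counting error only.

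Counts from all 30 libraries in 6 groups were fitted with edgeR 4.0.16 (TMM, filterByExpr with a minimum count of 10 and a total of 15, robust quasi-likelihood F test) in R 4.3.3, with a Benjamini-Hochberg threshold of 0.05. The SE is the log2 change divided by the square root of F. CPM are gene counts scaled to the same library total. For the marker index, log2 values took a prior count of 1, and groups were compared with an exact permutation test in scipy 1.17.1. The fit was tested on simulated data. DESeq2 1.42.0 and limma 3.58.1 gave alternatives. Leaving out Susceptible 1, Susceptible 2 and Resilient 5 together, and leaving out D1 Susceptible 1, were chosen after seeing the data. Gene symbols came from GENCODE M21 and matched 55154 genes, while 181 had none.

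Members and gene lists were chosen with earlier results of these data known. Named genes were those called, the 6 in each direction with the smallest p without Susceptible 1 and 2 (mean CPM of 1 or more), the member of each list with the smallest p in each direction, the class markers and Rpl22. Further genes of the lists, such as Arid1a, Camkk2, Scg3, Pam, Npas4 and Calb2, were chosen after their values were seen. Gpr52, a listed D2-class marker, was not analysed here. Results for some items are not reported here.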

Additional observations from a re-analysis of the deposited data

Results flagged for a closer look

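Single libraries lay far from the other 4 of their group by Dixon's test at the 95% level (critical value 0.71 for 5 samples), which chance meets in about 1 in 20 groups. Most of these values belonged to Resilient 5. It had 205.3 CPM of Drd2, 490.9 CPM of Adora2a, 100.5 CPM of Gpr6, 31.95 CPM of Sp9 and 54.53 CPM of Rpl22, each the lowest of its group. It also had 414.3 CPM of Drd1, 433.7 CPM of Pdyn, 791.7 CPM of Tac1, 29.11 CPM of Isl1, 143.4 CPM of Sfxn1 and 41.66 CPM of Chrm4, each the highest. Its marker index was 1.395 and its D1-class sum 1858 CPM. Its summed markers were 284.4 CPM for astrocytes, 88.69 CPM for endothelial cells and 229.1 CPM for interneurons.

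Susceptible 2 stood apart with 100.4 CPM of Sp9, 107.2 CPM of Rpl22 and a marker index of 6.602. Susceptible 1 did so with 6.399 CPM of Stk36, 33.03 CPM of Gabrg1, an astrocyte sum of 604.4 CPM and an interneuron sum of 78.61 CPM. Susceptible 3 had 0.01754 CPM of Mustn1, which is 1 count beside 0 in the rest of its group. Resilient 1 had 7.101 CPM of Eya1. Choroid plexus and ependymal markers summed to 42.49 CPM in Susceptible 4 and 52.59 CPM in Resilient 2.

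Y-linked genes had counts in libraries from mice labelled female. Ddx3y had 267 counts in Susceptible 1 and 56 in Susceptible 2, and 0 in the other 8 compared libraries, beside 0 to 13 in Control libraries. Uty had 144 counts in Susceptible 1 and 0 in the other 14 D2 libraries. Of the other Y-linked genes listed, Kdm5d had 0 and 1 counts in Susceptible 1 and 2, and 1 in Susceptible 5. Eif2s3y had 0 counts in all Susceptible libraries and 13 in Resilient 2. Xist, the RNA of the inactive X chromosome, was 104 and 82.2 CPM in Susceptible 1 and 2. It was 36.2 to 98.3 CPM in the other 8 compared libraries. What these counts come from was not tested.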

How the results depend on the processing

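The number of genes called between D2 Susceptible and Resilient, 10, was 976 with DESeq2, 0 with only the compared groups in the fit, 1 with voom and quality weights, 0 without Susceptible 1 and 2, and 0 without these and Resilient 5. It was 0 to 1964 when 1 replicate was left out. With the replicate block it was 19, but the numbers share only a number: same-numbered libraries correlated at −0.0474 to 0.0666, and replicates 1 and 5 alone correlated best with their own number. The count for the D2 minus D1 difference, 0, was 47 with DESeq2, 1 without Susceptible 1 and 2, and 0 to 156 when 1 replicate was left out. The marker index difference was 0.954 with 4 markers and 0.503 without the 3 libraries, and with the replicate block it stayed 1.406 with an exact sign-flip permutation p of 0.0625, the smallest possible; leaving out 1 replicate gave 0.769 to 1.625. The cause of these differences was not tested.

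Some named genes changed sign. Without Susceptible 1 and 2 the log2 change was −0.00273 for Prkar2a, −0.0527 for Cpe, 0.0241 for Kcnk1 and −0.132 for Hsp90aa1. Without Resilient 5 as well it was −0.0926 for Cpe, 0.0590 for Kcnk1, −0.170 for Hsp90aa1 and 0.0377 for Isl1. With voom it was −0.0642 for Cpe and −0.0725 for Hsp90aa1. Without D1 Susceptible 1 it was −0.00459 for Gpr6. With 1 replicate left out the range was −0.163 to 0.138 for Gpr6, −0.103 to 0.620 for Cpne9, −0.535 to 0.272 for Tac1, −0.796 to 0.214 for Sfxn1 and −0.715 to 0.00177 for Eya1. Of 1271 values for named genes under the alternatives, 1074 kept direction and side of the threshold. Most named genes did not pass with all libraries, so they had no call to lose. The called genes kept their calls in 4 to 7 of 10 fits without 1 replicate. These were 7 for Hrk, Chd9 and Mustn1, 6 for Ttc39c and 5 for Nrgn and Scg2. For Sez6l, Arhgef15, Kcnk2 and Cpne7 they were 4. Depth limits Mustn1, at 1 against 69 counts.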
